A study of Mus musculus with 24 samples.

Results

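Laminins are the trimeric proteins on which basement membranes, the sheets of matrix around cardiomyocytes and under endothelium, are built. The genes described here are 9 of the 21878 in the count table, chosen by name: the alpha chains Lama2, Lama4 and Lama5, the beta chains Lamb1 and Lamb2, the gamma chain Lamc1, and the proteins that tie the laminin sheet to the collagen IV network, Nid1 and Nid2 (nidogens) and Hspg2 (perlecan). All 9 were among the 13501 genes that passed the filter on low counts.

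Each laminin trimer joins 1 alpha, 1 beta and 1 gamma chain. The alpha chain carries the sites that bind integrins and dystroglycan on the cell surface, and it largely sets which cells a laminin serves: alpha2 is the chain of muscle basement membranes, and alpha4 and alpha5 are the chains of blood vessels. Beta1 and beta2 take the same place in the trimer, gamma1 is shared by most laminins, nidogens bind gamma1 and collagen IV, and perlecan carries heparan sulfate chains that hold growth factors. In the infarcted heart, basement membranes are lost with dying cells and laid down again around surviving muscle and new vessels.

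RNA was sequenced from hearts of mice that had all been ovariectomised and had all had a myocardial infarction 3 weeks before. They had received AAV9, a virus that carries genes to the heart, either made to overexpress the microRNA miR-21 or empty, and some had done swimming training before the infarction while the rest had not. The 4 groups are miR-21 swimming (5 libraries analysed of 6 labelled), miR-21 non-swimming (6 libraries), empty-vector swimming (6) and empty-vector non-swimming (6). The labels give neither the age nor the strain of the mice, the part of the heart taken, the promoter of the vector, or whether libraries stand for separate animals, so each p-value is about the spread of these samples, which may be technical. The series' title asks how exercise and miR-21 act on the infarcted heart.

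The 23 libraries held 12744241 to 14657630 counts. Summed levels of 8 cardiomyocyte markers were 50799 to 105220 CPM (counts scaled to library size, here with trimmed mean of M-values, TMM), as the heart label says. The mature miRNA is not measured by poly(A) libraries and the table has 0 rows for the precursor genes, so the overexpression could not be checked in these counts. In 3 libraries, miR-21 swimming replicate 2 and empty-vector non-swimming replicates 2 and 5, adipocyte genes stood highest, with a summed level of up to 327 CPM in the miR-21 swimming group, against at most 6.54 CPM in the miR-21 non-swimming group, and of at most 4.21 CPM in the empty-vector swimming group, against up to 357 CPM in the empty-vector non-swimming group. Numbers in the sample titles form a lower and a higher series: all empty-vector swimming libraries are in the higher one, all non-swimming libraries in the lower one, and the miR-21 swimming group has replicates 1 and 2 in the lower and 3 to 5 in the higher. Bulk RNA cannot tell fewer cells of a type from less RNA per cell.

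Per transcript length, Lamb2 was the most abundant of the 9 genes in every group, and Hspg2 came next. The authors' FPKM, which divide by gene length and can be set side by side between genes, gave Lamb2 a mean of 109 ± 7.0 in miR-21 swimming, 112 ± 6.2 in miR-21 non-swimming, 108 ± 7.2 in empty-vector swimming and 109 ± 5.8 in empty-vector non-swimming libraries (SD, n = 5, 6, 6 and 6). Hspg2 averaged 65.0 ± 11 FPKM in miR-21 swimming, 60.4 ± 9.7 FPKM in miR-21 non-swimming, 80.5 ± 6.0 FPKM in empty-vector swimming and 72.9 ± 8.2 FPKM in empty-vector non-swimming libraries. No library of Hspg2 reached the lowest of Lamb2 in its group.

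Lamc1 and Nid1 followed at 32.3 to 50.2 FPKM in group means, with overlapping libraries in every group and with Nid1 ahead only in the empty-vector swimming group. Lamb1, the alternative to Lamb2 in the trimer, came after them at 25.7 to 37.6 FPKM. Of the alpha chains, the vascular Lama4 stood at 19.7 to 30.1 FPKM, Lama5 at 15.5 to 27.2 FPKM and the muscle chain Lama2 at 13.6 to 15.5 FPKM, and Nid2 was lowest at 7.46 to 12.8 FPKM. Libraries of neighbours in this order overlapped for Hspg2 and Lamc1 in the miR-21 swimming group, for Nid1 and Lamb1 in the miR-21 non-swimming group, and for Lamb1 and Lama4 in every group but that one. Lama4 and Lama5 overlapped in both swimming groups, Lama5 and Lama2 in both non-swimming groups, and Lama2 and Nid2 overlapped in every group but miR-21 non-swimming. Some places depend on the length used. Per kilobase of all annotated exons Lama5 stood above Lama4 in every group, and above Lamb1 in every group but empty-vector non-swimming. By that measure Nid2 stood above Lama2 in both empty-vector groups, and Lamc1 stood above Nid1 in every group.

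**Figure D1:**
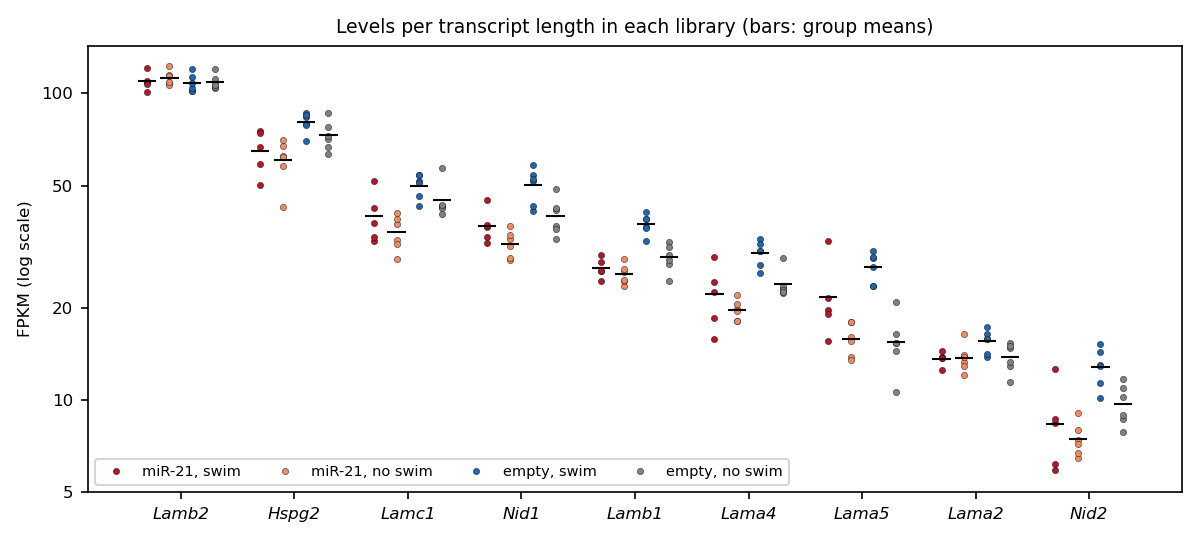
FPKM (log scale) of the 9 genes in each library, coloured by group, with bars at the group means. Lamb2 is above 100 FPKM in all 23 libraries with group means of 108 to 112 FPKM, while the other genes stand highest in the empty-vector swimming group.

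Swimming with the empty vector went with higher levels of the vascular alpha chains, of Lamb1 and of both nidogens. In empty-vector swimming against empty-vector non-swimming libraries, 5 of the 9 genes rose (Lama4, Lama5, Lamb1, Nid1 and Nid2) and 0 fell, by edgeR's quasi-likelihood test at a Benjamini-Hochberg adjusted p under 0.05. Over all genes tested 7.46% were called in this comparison, 4.18% as higher. The median log2 fold change of the 9 genes was 0.35, and that of all genes tested was -0.005.

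Lama5 had the largest change of the 9. Its level was 265, 327 and 356 CPM (lowest, median and highest) in empty-vector swimming libraries, against 124, 178 and 232 CPM in empty-vector non-swimming libraries. The groups did not overlap. The log2 fold change was 0.82 ± 0.16 (SE), or 1.77-fold (edgeR adjusted p = 0.00408).

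Lamb1 likewise did not overlap. It stood at 196, 225 and 246 CPM in empty-vector swimming libraries, against 144, 173 and 185 CPM in empty-vector non-swimming libraries, a log2 fold change of 0.38 ± 0.066 (edgeR adjusted p = 0.00175). Among all genes tested, 4.58% had groups that did not overlap in this comparison, and Lama5 and Lamb1 were the 2 among these 9.

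Lama4, whose protein supports capillary walls, was at 155, 183 and 194 CPM in empty-vector swimming libraries, against 132, 138 and 160.0 CPM in empty-vector non-swimming libraries. Of the swimming libraries only replicate 3 lay inside the other group's range. The log2 fold change was 0.35 ± 0.086 (edgeR adjusted p = 0.0179).

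Of the nidogens, Nid1 was at 247, 306 and 347 CPM in empty-vector swimming libraries, against 207, 231 and 269 CPM in empty-vector non-swimming libraries, with a log2 fold change of 0.35 ± 0.084 (edgeR adjusted p = 0.0140). Nid2 was at 49.1, 62.8 and 71.3 CPM in empty-vector swimming libraries, against 38.0, 47.0 and 54.6 CPM in empty-vector non-swimming libraries, with a log2 fold change of 0.41 ± 0.12 (edgeR adjusted p = 0.0472). The lowest swimming libraries of both nidogens lay within the range of the non-swimming ones. The call of Nid2 sits at the threshold: when each of the 23 libraries was left out in turn it was kept only without miR-21 swimming replicate 2, 3 or 5, miR-21 non-swimming replicate 5, empty-vector swimming replicate 3 or empty-vector non-swimming replicate 6, with the log2 fold change between 0.35 and 0.46 and the adjusted p as high as 0.117.

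The other 4 genes did not pass. Lamb2 averaged 600.9 ± 47.1 CPM in empty-vector swimming and 601.7 ± 16.5 CPM in empty-vector non-swimming libraries (SD, n = 6 each), an edgeR adjusted p of 0.991. Lamc1 (log2 fold change 0.17 ± 0.088, edgeR adjusted p = 0.246), Lama2 (0.18 ± 0.092, 0.232) and Hspg2 (0.15 ± 0.10, 0.378) had positive values smaller than those of the called genes.

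Within the empty vector, swimming and the title series cannot be told apart. With a term for the title series, which rests on the miR-21 swimming libraries, 2 of the 9 were called, beside 164 of 13501 genes tested. These were Lama4 (log2 fold change 0.62, edgeR adjusted p = 0.0386) and Nid2 (0.87, 0.0355). In that fit Lamb1 had 0.42 (edgeR adjusted p = 0.118) and Nid1 0.45 (0.189), close to their values without the term, while Lama5 had 0.23 (0.742). The term sets miR-21 swimming replicates 1 and 2 against 3 to 5. Replicate 2, a library high in adipocyte genes, had the highest Lama4 (152 CPM) and Nid2 (52.6 CPM) of that group. Its part in these 2 calls was not tested.

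Among the markers of other cells, the endothelial list moved the same way: 4 of its 8 genes rose (Erg, Cdh5, Pecam1 and Tek), and their summed level was 1491 to 1849 CPM in empty-vector swimming against 1289 to 1548 CPM in empty-vector non-swimming libraries, with a median log2 fold change of 0.22. None of the 8 was at 0 in any library. The pericyte and smooth muscle list had 2 of 8 higher (Rgs5 and Kcnj8). Of the fibroblast lists, 1 of 7 resident genes (Dcn) and 1 of 8 activated genes (Comp) fell, and 4 of 5 tested adipocyte genes fell. Of Schwann cell genes 2 of 6 tested rose, and of mesothelial genes 1 of 7 fell (Upk3b). None of 7 macrophage and 8 cardiomyocyte genes was called. The part of any of these in the laminin values was not tested. Without the 3 libraries highest in adipocyte genes, 5 of the 9 laminin and linker genes were called, beside 1555 of 13389 genes tested.

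**Figure D2:**
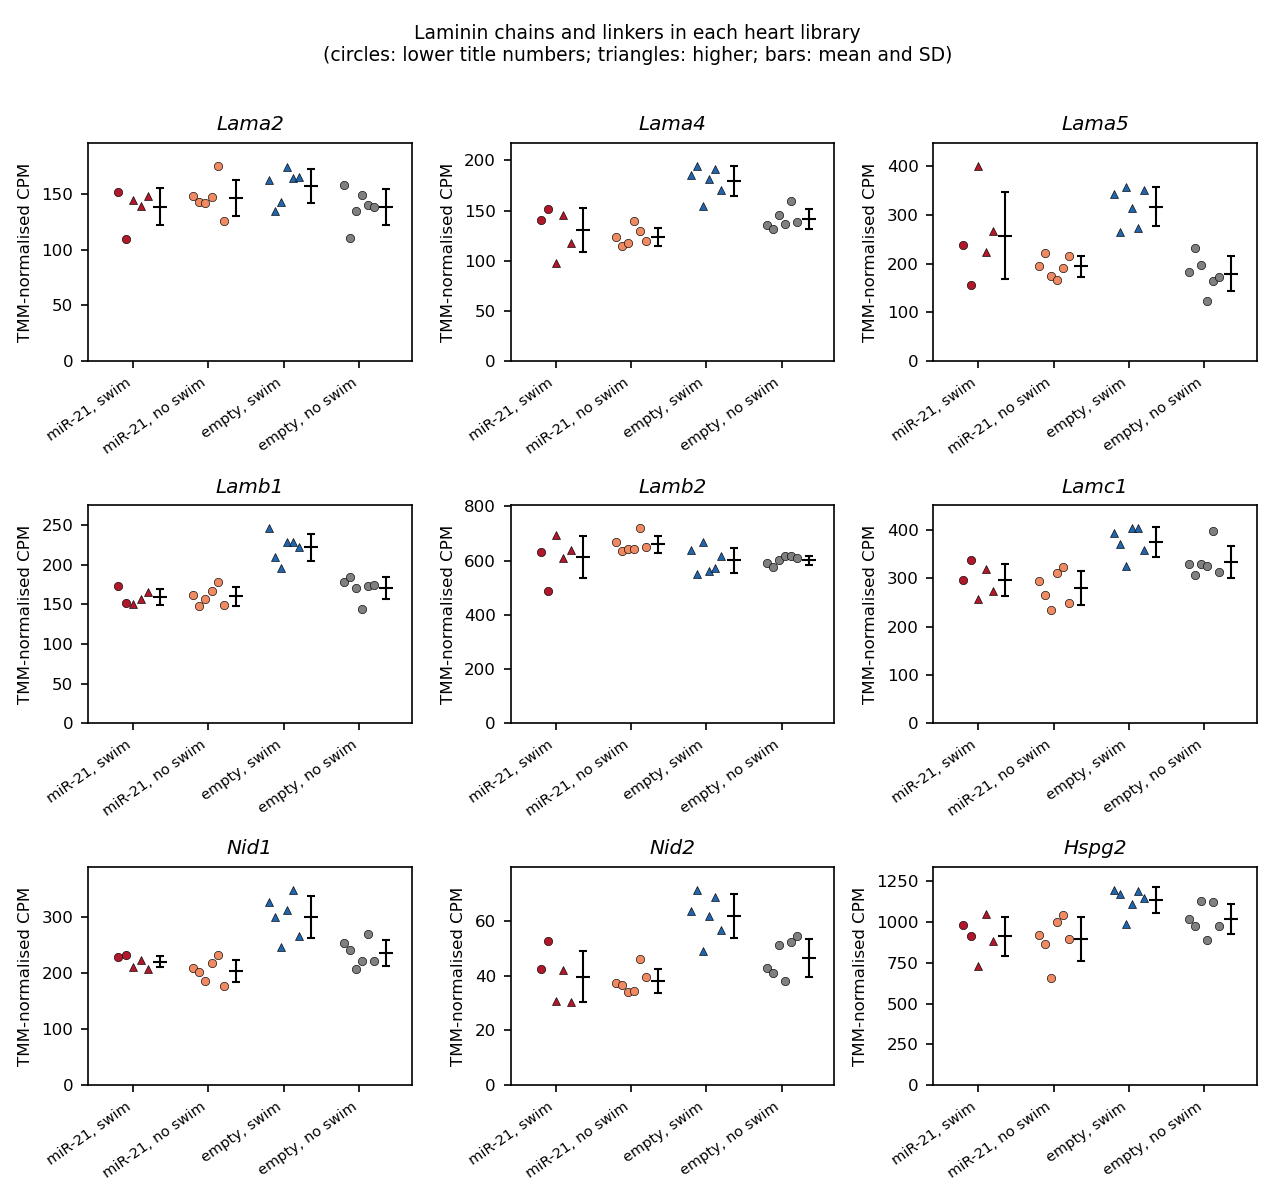
TMM-normalised CPM of each gene in each library, by group, with the group mean and SD beside the points. Circles are libraries of the lower title series and triangles those of the higher. The empty-vector swimming libraries lie highest for Lamb1 (196 to 246 CPM) with no overlap with any other group, and the Lamb2 group means lie between 600.9 and 659 CPM.

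With the miR-21 vector, swimming hearts had lower levels of 3 laminin chains and both nidogens than swimming hearts with the empty vector. In miR-21 swimming against empty-vector swimming libraries 5 of the 9 genes fell (Lama4, Lamb1, Lamc1, Nid1 and Nid2) and 0 rose, where 4.58% of all genes tested were called and 2.71% were called lower. The median log2 fold change of the 9 was -0.34, and that of all genes tested was 0.018. This comparison shares the empty-vector swimming libraries with the one above.

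Lamb1 ranked 13th by p among the 13501 genes. It had 173, 152, 150.2, 157 and 166 CPM in miR-21 swimming replicates 1 to 5, against 196, 225 and 246 CPM (lowest, median and highest) in empty-vector swimming libraries. All 5 miR-21 libraries lay below all 6 with the empty vector. The log2 fold change was -0.48 ± 0.070 (edgeR adjusted p = 0.000634).

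Lama4 also had no overlap. Its level was 140.2, 152, 97.9, 146 and 118 CPM in miR-21 swimming replicates 1 to 5, against 155, 183 and 194 CPM in empty-vector swimming libraries, with a log2 fold change of -0.46 ± 0.091 (edgeR adjusted p = 0.00557). Replicate 3 was the lowest and replicate 2, a library high in adipocyte genes, the highest of the miR-21 libraries.

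Nid1 was the third gene without overlap, at 228, 232, 211, 223 and 208 CPM in miR-21 swimming replicates 1 to 5, against 247, 306 and 347 CPM in empty-vector swimming libraries. The log2 fold change was -0.44 ± 0.088 (edgeR adjusted p = 0.00557). Over all genes tested, 3.25% had groups that did not overlap. Nid2, with the largest log2 fold change of the 9 at -0.64 ± 0.13 (edgeR adjusted p = 0.00704), had 42.3, 52.6, 30.9, 42.1 and 30.6 CPM in miR-21 swimming replicates 1 to 5, against 49.1, 62.8 and 71.3 CPM in empty-vector swimming libraries. Only replicate 2 reached into the other group's range.

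Lamc1, the shared gamma chain, stood at 296, 338, 258, 319 and 273 CPM in miR-21 swimming replicates 1 to 5, against 325, 383 and 404 CPM in empty-vector swimming libraries. Replicate 2 lay above the lowest empty-vector library. The log2 fold change of -0.34 ± 0.093 passed the test (edgeR adjusted p = 0.0361), but the call was kept in only 13 of 23 fits that leave out a library. It was lost without miR-21 swimming replicates 1, 3, 4 or 5, miR-21 non-swimming replicate 1, or empty-vector swimming replicates 1, 2, 4, 5 or 6, with the log2 fold change between -0.38 and -0.30 and the adjusted p at most 0.0967. In the authors' deposited table Lamc1 had a q of 0.175 in this comparison.

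Hspg2 (log2 fold change -0.31 ± 0.11, edgeR adjusted p = 0.0968), Lama5 (-0.30 ± 0.17, 0.331), Lama2 (-0.18 ± 0.096, 0.299) and Lamb2 (0.03 ± 0.077, 0.880) did not pass. Lama5 was spread widely in the miR-21 swimming group, at 237, 157, 399, 223 and 267 CPM in replicates 1 to 5. Its replicate 3 was above every empty-vector swimming library, whose highest was 356 CPM, and replicates 1, 2 and 4 were below all of them.

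Title series could be held constant here. Among the libraries of the higher series alone, 3 with the miR-21 vector and 6 with the empty one, 5 of the 9 genes were called, with a log2 fold change of -0.48 for Lamb1 (edgeR adjusted p = 0.00411), -0.56 for Lama4 (0.00979), -0.47 for Nid1 (0.0112), -0.83 for Nid2 (0.00507) and -0.40 for Lamc1 (0.0153). Of the 13200 genes tested in that fit, a larger share was called than the 4.58% of the main one. The share was also above the 7.46% called in the main fit for swimming with the empty vector. Without the 3 libraries highest in adipocyte genes 5 were called, beside 2318 of 13389 genes tested. With only the 2 groups in the fit, 2 were called, Lamb1 and Nid1, beside 165 of 13067 genes tested. The edgeR adjusted p was then 0.0743 for Lama4, 0.0602 for Nid2 and 0.0998 for Lamc1.

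The endothelial list again moved with these genes. Of its 8 markers 4 fell (Cdh5, Erg, Pecam1 and Kdr), with a median log2 fold change of -0.28 and a summed level of 1266 to 1491 CPM in miR-21 swimming against 1491 to 1849 CPM in empty-vector swimming libraries. None of the pericyte, smooth muscle, fibroblast, Schwann cell, adipocyte, macrophage or cardiomyocyte markers was called, and 4 of 7 mesothelial markers rose, with the highest sum, 192 CPM, in miR-21 swimming replicate 2. The median mesothelial sum was 6.91 CPM in miR-21 swimming libraries (5.52 to 192) and 10.9 CPM in empty-vector swimming libraries (8.03 to 14.1). Their part in the laminin values was not tested.

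**Figure D3:**
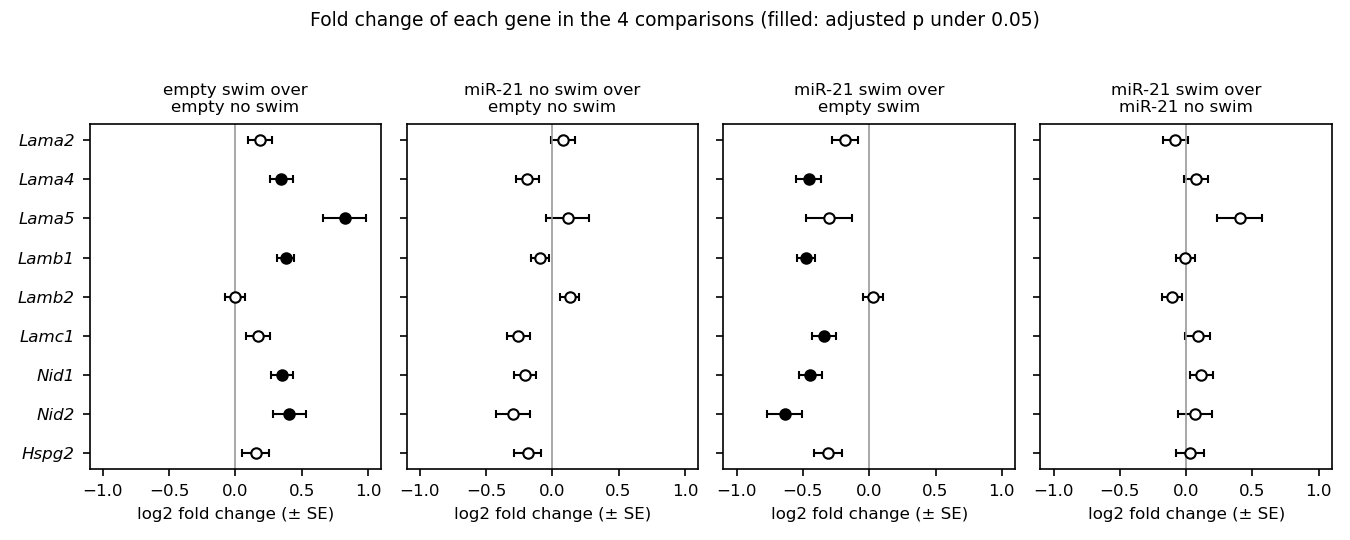
Log2 fold change with its SE for each gene in the 4 comparisons of groups, with filled points where the edgeR adjusted p was under 0.05. Swimming with the empty vector has 5 filled points, all above 0, the miR-21 vector with swimming has 5, all below 0, and both other comparisons have 0.

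Without swimming, the miR-21 vector changed none of the 9 genes past the threshold. In miR-21 non-swimming against empty-vector non-swimming libraries 0 were called by edgeR, beside 2.25% of all genes tested, and 4 of the 9 had an unadjusted p under 0.05: Lamc1 (log2 fold change -0.26 ± 0.088, adjusted p = 0.0860), Nid1 (-0.21 ± 0.084, 0.121), Nid2 (-0.30 ± 0.13, 0.133) and Lama4 (-0.19 ± 0.087, 0.159). Lamb2 was at 637, 646 and 719 CPM in miR-21 non-swimming libraries, against 575, 606 and 618 CPM in empty-vector non-swimming libraries. These did not overlap, as in 5.44% of all genes tested, and the log2 fold change of 0.13 ± 0.073 did not pass (edgeR adjusted p = 0.230). DESeq2 called 1 of the 9, Lamc1 (adjusted p = 0.0424), beside 1235 of 13501 genes tested. The limma voom fit called 1, Nid2 (adjusted p = 0.0351), and called more of all genes tested than DESeq2 did. Both fits called a larger share of all genes than the 2.25% of the edgeR fit. Without miR-21 swimming replicate 2 in the fit, edgeR called Lamc1 (adjusted p = 0.0366). Of the marker lists, 2 of 8 pericyte and smooth muscle genes (Cnn1 and Tagln) and 2 of 8 activated fibroblast genes (Comp and Cthrc1) fell, and 0 of 8 endothelial genes were called.

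Among mice given the miR-21 vector, swimming left the 9 genes uncalled. In miR-21 swimming against miR-21 non-swimming libraries 0 of the 9 passed by edgeR, beside 0.17% of all genes tested. DESeq2 and limma voom also called 0 of the 9, beside 403 and 314 of 13501 genes. Lama5 was the one gene of the 9 with an unadjusted p under 0.05 in the edgeR fit. Lama5 had 237, 157, 399, 223 and 267 CPM in miR-21 swimming replicates 1 to 5, against 167, 192 and 222 CPM (lowest, median and highest) in miR-21 non-swimming libraries, a log2 fold change of 0.40 ± 0.17 (edgeR adjusted p = 0.214). Of the miR-21 swimming libraries, replicates 1 and 2 are of the lower title series, as are all non-swimming libraries. Under the settings other than leaving out 1 library, the log2 fold change of Lama5 ran from 0.022 to 0.54, called under none. In the main fit the other 8 genes lay between -0.11 (Lamb2) and 0.11 (Nid1). Lamb1 averaged 159.5 ± 9.8 CPM in miR-21 swimming libraries and 160.1 ± 11.7 CPM in miR-21 non-swimming libraries (SD, n = 5 and 6), a log2 fold change of -0.01 ± 0.070 whose sign changed under several alternatives. No gene of the 9 had groups that did not overlap, against 2.76% of all genes tested. No gene of the marker lists was called in this comparison.

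Whether swimming acted differently under the vectors was tested as an interaction: the swimming effect with the miR-21 vector minus that with the empty vector. All 9 estimates were negative and 0 passed by edgeR, beside 0.541% of all genes tested. Lamb1 was nearest, at -0.38 ± 0.096 (edgeR adjusted p = 0.0565), followed by Lama4 at -0.27 ± 0.13 (0.216). Those 2 were the ones with an unadjusted p under 0.05. DESeq2 called Lamb1 (adjusted p = 0.00717), beside 719 of 13501 genes tested, and so did limma voom (adjusted p = 0.0405), beside 147 of 13501. Lamb1 was also called by edgeR without miR-21 swimming replicate 1 or 5 (lowest adjusted p = 0.0420). Fits that leave out 1 library called 18 to 358 genes for the interaction. So the effects of swimming under the vectors were not shown to differ for these genes by the edgeR fit.

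Setting alternative chains against each other within a library gives a value that library scaling cannot move. The ratio of Lamb1 to Lamb2 in FPKM had a geometric mean of 0.348 in empty-vector swimming libraries (0.277 to 0.384) and 0.267 in empty-vector non-swimming libraries (0.220 to 0.303). The difference was 0.38 on the log2 scale and passed a two-sided exact permutation test over all 924 splits (p = 0.00649, adjusted p = 0.0390 over the 12 ratio tests). With swimming, the ratio was 0.247 in miR-21 libraries (0.203 to 0.294) and 0.348 in empty-vector libraries, a log2 difference of -0.50 (exact permutation p = 0.00649, adjusted p = 0.0390, over 462 splits).

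Without swimming, Lamb1 over Lamb2 was 0.228 in miR-21 libraries (0.216 to 0.245) and 0.267 in empty-vector libraries, a log2 difference of -0.22 (exact permutation p = 0.0108, adjusted p = 0.0433). Among miR-21 libraries it was 0.247 with swimming and 0.228 without, a log2 difference of 0.11 (exact permutation adjusted p = 0.306). The libraries overlapped in each of these 4 comparisons. The calls are near the threshold. With swimming as the contrast under the empty vector, the call was lost without empty-vector swimming replicate 1, 4 or 6 or empty-vector non-swimming replicate 3, 5 or 6, and between the swimming groups it was lost without empty-vector swimming replicate 1, 4 or 6 (exact permutation adjusted p at most 0.0584 in both). Without swimming it was kept only when miR-21 non-swimming replicate 4 or empty-vector non-swimming replicate 4 was left out (adjusted p otherwise at most 0.0779 by exact permutation), and leaving out the 3 libraries highest in adipocyte genes gave -0.18 (exact permutation adjusted p = 0.0762). Among miR-21 libraries the log2 difference was 0.18 without miR-21 swimming replicate 3 (exact permutation adjusted p = 0.0390), 0.27 in the lower title series alone (adjusted p = 0.0714) and 0.048 without the 3 libraries highest in adipocyte genes (adjusted p = 0.577).

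Among alpha chains, Lama5 over Lama4 was 0.901 in empty-vector swimming libraries (0.701 to 1.18) and 0.640 in empty-vector non-swimming libraries (0.464 to 0.905), a log2 difference of 0.49 (exact permutation p = 0.0195, adjusted p = 0.0468). Lama4 over Lama2, the vascular against the muscle chain, was 1.43 in miR-21 non-swimming libraries (1.25 to 1.61) and 1.73 in empty-vector non-swimming libraries (1.46 to 2.02), a log2 difference of -0.27 (exact permutation p = 0.0195, adjusted p = 0.0468). It was -0.18 without the 3 libraries highest in adipocyte genes (exact permutation adjusted p = 0.107). The call of Lama5 over Lama4 was kept only without empty-vector swimming replicate 2 or 5 or empty-vector non-swimming replicate 2, and that of Lama4 over Lama2 only without miR-21 non-swimming replicate 4 or empty-vector non-swimming replicate 4, with exact permutation adjusted p as high as 0.119 and 0.117. Among miR-21 libraries Lama5 over Lama4 was 0.975 with swimming (0.531 to 2.09) and 0.801 without (0.614 to 0.996), a log2 difference of 0.28 (exact permutation adjusted p = 0.491) that was -0.24 in the lower title series alone (adjusted p = 0.390). The other 5 comparisons of the alpha ratios had adjusted p from 0.190 to 0.764 by the same exact permutation test. For Lama4 over Lama2 in miR-21 swimming against empty-vector swimming libraries the log2 difference was -0.29 with all libraries and -0.43 without miR-21 swimming replicate 2 (exact permutation adjusted p = 0.249 and 0.0390). For Lama5 over Lama4 in the same comparison it was 0.11, and -0.16 without miR-21 swimming replicate 3.

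**Figure D4:**
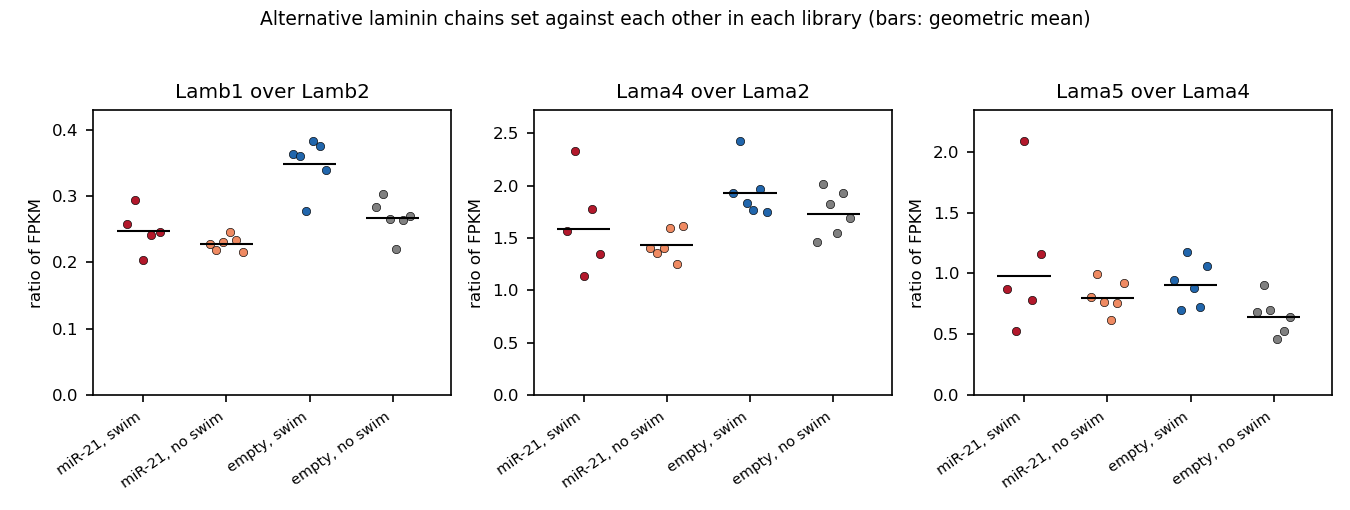
Ratio of FPKM of Lamb1 over Lamb2, Lama4 over Lama2 and Lama5 over Lama4 in each library, with a bar at the geometric mean of the group. In the first panel 5 of the 6 empty-vector swimming libraries lie above all others, and 1, at 0.277, lies among the empty-vector non-swimming libraries.

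Across the 23 libraries the 9 genes fell into a group that varied together and 3 that did not. Pearson's r of log2 CPM, given as a description since the libraries share their groups and scaling, was 0.72 to 0.91 for every pair among Lama4, Lamb1, Lamc1, Nid1, Nid2 and Hspg2. The highest were Lama4 with Nid2 (0.91), Lama4 with Lamc1 (0.90) and Lamc1 with Nid1 (0.90). After the group means were taken out, Lama4 with Lamc1 stood at 0.80 and Lamc1 with Nid1 at 0.79, whereas Lamb1 with Nid2 stood at 0.28.

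Lamb2 ran the other way, with r of -0.54 to Lama4, -0.52 to Nid2 and -0.46 to Lamc1. Lama5 was loosely tied to the rest, most to Lamb1 (0.58), and within groups it was at -0.75 to Lama4. Lama2 was highest with Lamb1 (0.47). Without the 3 libraries highest in adipocyte genes, the r of Lama2 was 0.61 with Nid1, 0.58 with Lamb1 and 0.57 with Lamc1. It was then 0.31 to 0.37 with Lama4, Nid2 and Hspg2, and -0.0065 with Lamb2, against 0.42 over all 23.

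The genes elsewhere in the table whose log2 CPM ran most like these were, for Lama4, Nrp2, Ccnd1 and Kit (r = 0.94 each). For Nid2 they were Vash1, Fscn1 and Ift122 (0.92 to 0.94), for Nid1 Itpripl2, Aurka and Tspan6 (0.91 to 0.92) and for Lama5 Appl2, Lrrc4b and Thra (0.91 each). For Lamb1 they were Pxdn, Lrrc8c and Pydc3 (0.89 to 0.91), for Lamc1 F2r, Fmnl3 and Golim4 (0.89 to 0.90) and for Lamb2 Gzmm, Fgf1 and Rbm38 (0.84 to 0.88). For Hspg2 they were Plxnd1, Dchs1 and Cdc42bpb (0.85 to 0.86), and for Lama2 Wsb2, Tmem204 and Usp4 (0.80 to 0.81). Without the 3 libraries highest in adipocyte genes these ran from 0.80 to 0.97, except for Lama2, where they were 0.59 to 0.61.

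Beside 0.17% to 7.46% of all genes tested, 0 of 8 basement membrane collagen chains were called in any comparison. Their median log2 fold change was -0.03 for swimming with the empty vector, -0.06 for swimming with the miR-21 vector and -0.43 for the miR-21 vector with swimming. For the miR-21 vector without swimming it was -0.59, against -0.0048 over all genes tested, with 0 of the 8 positive and 4 at an unadjusted p under 0.05 in edgeR. Col4a2, a chain of the main collagen IV network, averaged 799 ± 168 CPM in empty-vector swimming and 975 ± 139 CPM in empty-vector non-swimming libraries (edgeR adjusted p = 0.282). It averaged 661 ± 80.5 CPM in miR-21 non-swimming libraries, a log2 fold change of -0.56 ± 0.16 against empty-vector non-swimming libraries (edgeR adjusted p = 0.0553), and its partner chain Col4a1 had -0.61 ± 0.18 in that comparison (edgeR adjusted p = 0.0594).

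Of 14 other basement membrane proteins, swimming with the empty vector had 2 higher and 2 lower, where 7.46% of all genes tested were called. Pxdn, the peroxidase that cross-links collagen IV, rose by 0.72 ± 0.12 on the log2 scale (edgeR adjusted p = 0.000883), and Agrn, the heparan sulfate proteoglycan agrin, by 0.27 ± 0.067 (0.0180). Fbln1, fibulin-1, fell by 1.29 (0.00432). Its mean was 115 ± 22.1 CPM in empty-vector swimming and 281 ± 112 CPM in empty-vector non-swimming libraries (SD). In miR-21 swimming against empty-vector swimming libraries 3 of the 14 fell, where 2.71% of all genes tested were called lower. The 3 were Pxdn (-0.76 ± 0.12, edgeR adjusted p = 0.00102), Tinagl1 (-0.26 ± 0.068, 0.0306) and Smoc2 (-0.32 ± 0.092, 0.0484). The interaction of swimming and vector passed for Pxdn (-0.76 ± 0.17, edgeR adjusted p = 0.0375) and Fbln1 (1.78 ± 0.37, 0.0291).

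On the cell-surface side, 1 of 17 laminin receptors and proteins of the dystrophin complex was called for swimming under the empty vector, beside 7.46% of all genes tested. That was Bcam, which binds alpha5 laminins and rose (log2 fold change 0.37 ± 0.10, edgeR adjusted p = 0.0285). In miR-21 swimming against empty-vector swimming libraries 1 of the 17 was called, beside 4.58% of all genes tested. That was Itga6, the alpha6 integrin subunit, which fell (-0.61 ± 0.12, edgeR adjusted p = 0.00378). None of the 11 genes that put the laminin-binding sugar on dystroglycan was called in any comparison, where 0.17% to 7.46% of all genes were called. Counts this close to the shares over all genes are no result about these lists. Of 9 proteases of basement membranes, Mmp3 and Ctsl fell with swimming under the empty vector (edgeR adjusted p = 0.00704 and 0.0315). Over all genes tested, 7.46% were called in this comparison. Mmp3 averaged 4.64 ± 2.03 CPM in empty-vector swimming and 70.0 ± 95.3 CPM in empty-vector non-swimming libraries (SD), with an SD above the mean in the latter. Ctsl averaged 175 ± 8.07 and 224 ± 33.4 CPM. Plat fell with the miR-21 vector both with swimming (-0.66 ± 0.15, edgeR adjusted p = 0.0123) and without it (-0.60 ± 0.14, 0.0370). Mmp2 fell with the miR-21 vector without swimming (-1.12 ± 0.28, edgeR adjusted p = 0.0436). It averaged 85.8 ± 12.3 CPM in miR-21 non-swimming and 187 ± 85.0 CPM in empty-vector non-swimming libraries (SD), a wide spread in the latter. For the miR-21 vector, 4.58% of all genes tested were called with swimming and 2.25% without it.

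Since the vector was made to raise miR-21, its sequence is shown with the seed, the bases with which it pairs to targets. In RefSeq (GRCm38.p6) mature miR-21a-5p lies on the minus strand at chr11:86584120-86584141, and bases 2 to 8 are in capitals.
miR-21a-5p: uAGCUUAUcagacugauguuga
The complement of that seed, ATAAGCT, was found in the annotated 3' untranslated regions (UTR) of 0 of the 9 genes, against 7.84% of 12982 tested genes, and the shorter match TAAGCT in 1, Nid1, against 26.9%. The UTRs searched ran from 110 bases (Lamb2) to 2551 bases (Lamc1), and a site is a description, not a measured interaction.

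Promoter sequences of 300 bases, from 250 before to 50 after the start, were at hand from RefSeq (GRCm38.p6) for Lama2, Lama5, Lamb1, Lamb2, Nid1 and Hspg2. Lamb1 and Nid1 are shown since they were called in both comparisons with the empty-vector swimming group, Lama5 for the largest change with swimming, and Lamb2 as the other beta chain, with 0 calls. They lie at chr12:31265043-31265342 (plus strand), chr13:13437352-13437651 (plus), chr2:180225810-180226109 (minus) and chr9:108479612-108479911 (plus). Capitals mark GC boxes, GGGCGG or its complement CCGCCC.
Lamb1: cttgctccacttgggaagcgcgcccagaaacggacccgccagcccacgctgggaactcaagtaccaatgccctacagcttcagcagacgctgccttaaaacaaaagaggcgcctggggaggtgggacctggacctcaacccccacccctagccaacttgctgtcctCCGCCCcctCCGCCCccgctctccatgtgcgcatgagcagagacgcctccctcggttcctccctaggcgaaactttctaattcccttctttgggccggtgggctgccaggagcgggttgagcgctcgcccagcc
Nid1: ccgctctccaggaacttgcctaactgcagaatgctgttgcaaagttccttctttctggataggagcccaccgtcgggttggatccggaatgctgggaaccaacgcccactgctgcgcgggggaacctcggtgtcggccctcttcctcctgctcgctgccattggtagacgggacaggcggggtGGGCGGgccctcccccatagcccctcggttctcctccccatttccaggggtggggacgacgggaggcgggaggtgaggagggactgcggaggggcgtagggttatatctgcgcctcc
Lama5: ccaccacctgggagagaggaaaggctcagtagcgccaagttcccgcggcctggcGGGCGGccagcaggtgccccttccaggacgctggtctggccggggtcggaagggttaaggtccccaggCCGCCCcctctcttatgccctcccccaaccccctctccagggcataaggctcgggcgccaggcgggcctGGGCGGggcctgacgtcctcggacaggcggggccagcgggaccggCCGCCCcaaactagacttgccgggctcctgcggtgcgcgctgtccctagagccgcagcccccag
Lamb2: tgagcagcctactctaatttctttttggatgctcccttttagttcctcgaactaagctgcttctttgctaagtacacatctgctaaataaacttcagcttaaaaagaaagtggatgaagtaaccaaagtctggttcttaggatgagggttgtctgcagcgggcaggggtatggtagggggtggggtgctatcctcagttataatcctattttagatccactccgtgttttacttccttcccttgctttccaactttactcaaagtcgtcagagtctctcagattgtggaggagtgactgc
The Lamb1, Nid1 and Lama5 windows held 63.7%, 64.7% and 72.7% G and C with 18, 20 and 24 CG pairs, and the Lamb2 window 44.0% with 4, beside a median of 60.7% and 20 over 10320 promoters of tested genes. A GC box was found on either strand in 5 of the 6 windows, all but Lamb2, against 63.4% of all promoters. The core letters of Sox factor motifs, AACAAT, searched since the series' title names Sox7, were in 0 of the 6, against 5.64%, and TATAAA in 0 of the 6, against 7.13%. No match says only that these letters are not in this window.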

How the data were processed

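Per the labels' protocols, RNA was extracted with TRIzol and made into stranded poly(A) libraries; per the submitters' processing notes the build was GRCm39. Aligner and counter: not given in the sources used here. The authors deposited raw counts per gene, used for every test across genes, and FPKM, which equal the count per total and per gene length, used for levels between genes and for ratios. The authors' deposited comparison tables (log2 fold changes, p-values and q-values) were quoted for 1 value only, and 46 other per-sample columns were not used. Of the miR-21 swimming libraries, replicate 6 is not analysed here. Of 253 library pairs 0 had identical counts.

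All 23 libraries entered 1 edgeR quasi-likelihood fit (filterByExpr by group, TMM, robust, 1 coefficient per group), with Benjamini-Hochberg adjustment over 13501 genes. CPM are TMM-scaled, errors are SD over libraries or SE from the fit, and library totals of 12744241 to 14657630 counts set the precision. Ratios of FPKM were compared by two-sided exact permutation tests, adjusted over 12. The pipeline was tested on simulated data. Alternatives were RLE and upper quartile scaling, no filter or a mean of 1 CPM, DESeq2, limma voom with quality weights, 2 groups only, a title series term, 1 title series only, without the 3 libraries highest in adipocyte genes, and without each library. From each of 6 companion and 9 marker lists the text names up to 3 called genes by smallest p, else up to 2 uncalled ones, and for each of the 9 genes those most like it by Pearson's r. The genes and lists were chosen with earlier results of these data known. Tests were run with edgeR 4.0.16 and DESeq2 1.42.0, with limma 3.58.1 in R 4.3.3, and descriptions with pandas 2.3.3 in Python 3.11.15. Sequences are from RefSeq tables and UTRs from GENCODE transcripts of GRCm38.p6, an earlier build than that of the counts, so no coordinates were joined to the counts. Some listed genes are not reported here.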

Additional observations from a re-analysis of the deposited data

Results flagged for a closer look

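Of 36 sets of libraries, 9 genes in 4 groups, 3 held a library whose gap to its nearest neighbour was large for the range of the group, where chance gives about 1 in 20. Lamb2 in miR-21 non-swimming replicate 5 was at 718.6 CPM, with the others at 637 to 667 CPM. Lamb1 in empty-vector non-swimming replicate 4 was at 144.5 CPM, with the others at 170.3 to 185 CPM, and Lamc1 in empty-vector non-swimming replicate 5, a library high in adipocyte genes, was at 398 CPM, with the others at 307 to 331 CPM.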

How the results depend on the processing

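No paired analysis was possible because the numbers in the sample titles never repeat between groups. The number of all genes called also moved between settings, so counts of the 9 are set beside it. For swimming with the empty vector, 5 of the 9 genes were called under every setting except the title series term, where 2 were called. Of all genes, 1007 of 13501 were called in the main fit and 164 of 13501 with that term. The other settings ran from 848 of 17806 (no filter) to 1716 of 13501 (limma voom). When 1 library was left out, 4 to 5 of the 9 were called, beside 607 to 1922 genes. For the miR-21 vector with swimming the 5 called, beside 618 of 13501 genes, became 2 with only the 2 groups compared, beside 165 of 13067. They became 4 with no filter (491 of 17806 genes) and 6 with DESeq2 (970 of 13501) and with limma voom (2715 of 13501). When 1 library was left out, 4 to 5 were called, beside 330 to 1871 genes. For the miR-21 vector without swimming the 0 called, beside 304 of 13501 genes, became 1 with DESeq2 (1235 of 13501). It also became 1 with limma voom, which called more of all genes than DESeq2 did. When 1 library was left out, 0 to 1 were called (Lamc1, without miR-21 swimming replicate 2), beside 17 to 2885 genes. The interaction had 0 called (73 of 13501 genes), 1 with DESeq2 (719 of 13501) and 1 with limma voom (147 of 13501). When 1 library was left out it had 0 to 1 called (Lamb1, without miR-21 swimming replicate 1 or 5), beside 18 to 358 genes. Swimming with the miR-21 vector had 0 under every setting run, beside 0 of 17806 genes (no filter) to 1076 of 13501 (title series term). The causes were not tested.

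Among the 9 genes, signs changed for values near 0, which were not called under those settings; signs of 2 ratio differences changed too. Lamb2 for swimming with the empty vector was 0.0053 with upper quartile scaling, 0.0062 with no filter and -0.039 to 0.023 when 1 library was left out, and for the miR-21 vector with swimming -0.023 to 0.11 when 1 was left out. For swimming with the miR-21 vector, Lamb1 was 0.019 with upper quartile scaling, with the title series term and in the lower title series, 0.033 with limma voom, 0.0038 with only the 2 groups, 0.016 without the 3 libraries highest in adipocyte genes and -0.037 to 0.036 when 1 was left out; Nid2 was -0.013 with limma voom, -0.054 without those 3 and -0.051 to 0.15 when 1 was left out, and Hspg2 -0.045 to 0.096. Of the ratios, without those 3 libraries Lamb1 over Lamb2 and Lama4 over Lama2 were each -0.18 for the miR-21 vector without swimming and no longer passed, and Lama4 over Lama2 was -0.43 between the swimming groups and now passed. Lama5 over Lama4 for swimming with the miR-21 vector, 0.28 with all libraries, changed sign to -0.24 in the lower title series (exact permutation adjusted p = 0.390). When 1 library was left out, Lamb1 over Lamb2 ran from 0.33 to 0.45 (swimming with the empty vector), -0.28 to -0.19 (miR-21 vector without swimming), -0.56 to -0.43 (with swimming) and 0.048 to 0.18 (swimming with the miR-21 vector), Lama4 over Lama2 from -0.32 to -0.23 (miR-21 vector without swimming) and -0.43 to -0.17 (with swimming), and Lama5 over Lama4 from 0.40 to 0.59 (swimming with the empty vector) and -0.16 to 0.33 (miR-21 vector with swimming).

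Depth was at least 371 counts for each of the 9 genes in each library.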

Other observations

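Of the laminin chains outside the 9, Lama1 had 0 to 7 counts in any library and Lamc3 at most 30 except in miR-21 swimming replicate 2, a library high in adipocyte and mesothelial genes, where it had 202. Lamb3, a beta chain known from epithelia such as skin, was low but measured. Lamb3 averaged 22.9 ± 5.66 CPM in empty-vector swimming and 14.4 ± 2.37 CPM in empty-vector non-swimming libraries (SD, n = 6 each), a log2 fold change of 0.67 ± 0.15 (edgeR adjusted p = 0.0101). The interaction of swimming and vector for Lamb3 was -0.93 ± 0.22 (edgeR adjusted p = 0.0524).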
